A study of Mus musculus with 6 samples.

Results

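The glutathione S-transferases, UDP-glucuronosyltransferases and sulfotransferases were examined in the liver of mice given trichloroethylene (TCE), a chlorinated solvent. The members were all genes whose symbol in the authors' table begins with Gsta, Gstk, Gstm, Gsto, Gstp or Gstt, with Mgst, with Ugt1a, Ugt2a, Ugt2b or Ugt3a, or with Sult, each followed by a number. The rule used no measured value. It gave 52 genes with 78 probes, out of 24239 genes with a symbol on the array, and 38 of the 52 genes were detected, compared with 13275 of all genes. A gene was detected when a probe of it was well above background in every mouse of either group.

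Both groups were male B6C3F1 mice, a hybrid strain, aged 7 weeks and dosed by gavage. The control group (n = 3) received corn oil and the TCE group (n = 3) received 1000 mg/kg b.w. of TCE daily for 5 days. RNA of the whole liver of each mouse was hybridized to an array of its own, with no pooling, so that the comparison covers 1 dose and 1 time. The question was how gene expression in the liver changed under TCE.

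The products of these genes make foreign and internal compounds more soluble. Glutathione S-transferases (GSTs) join electrophiles to the thiol of glutathione, and the soluble ones are sorted into classes such as alpha, mu, pi, theta, kappa and omega, whereas the microsomal ones (MGSTs) are membrane proteins. UDP-glucuronosyltransferases (UGTs) of the endoplasmic reticulum transfer glucuronic acid to drugs, bilirubin and steroids, and sulfotransferases (SULTs) of the cytosol transfer a sulfonate group to phenols, steroids and bile acids. TCE itself is conjugated with glutathione on a minor route, and its alcohol metabolite trichloroethanol is conjugated with glucuronic acid.

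Arrays of the control mice correlated with each other at r = 0.987 to 0.990 across detected probes, those of the TCE mice at 0.978 to 0.987, and mice of different groups at 0.971 to 0.982. Between 23529 and 24948 probes per array were well above background, and 0 spots were saturated. The array of control mouse 1 lay on a different slide from the other 5. All 8 hepatocyte markers were detected, 4 higher and 4 lower, with log2 fold changes from -0.42 to 0.38 and a median of -0.01. By limma 0 of them were past the threshold used below, while 3 had an unadjusted p under 0.05, Hpx and Tat higher and Apoa1 lower, or 37.5% compared with 19.1% of all detected genes. In whole liver, fewer cells of a type and less RNA per cell cannot be told apart.

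Most GST genes were higher and most UGT genes lower in the TCE group after quantile normalization, whereas without normalization 10 of 13 UGT genes were higher. The families were not tested against each other. Of the 16 detected GST genes 11 had a higher mean in the TCE group, and of the 13 detected UGT genes 9 had a lower mean. Of all 13275 detected genes, 7053 were higher and 6222 lower. Both detected MGST genes were higher, and the 7 detected SULT genes were divided, 3 higher and 4 lower. Changes are given as log2 fold changes of TCE against control, so that 1 is a doubling, on quantile-normalized log2 signal. Each gene is represented by its brightest detected probe. The median log2 fold change was 0.32 for GST genes (range -0.64 to 1.16), 0.64 for the 2 MGST genes, -0.11 for UGT genes (range -1.21 to 0.64) and -0.12 for SULT genes (range -1.12 to 1.39). The median over all 13275 detected genes was 0.02. Without normalization between arrays, where the median of all genes was 0.27, the UGT and SULT medians were above 0, at 0.13 and 0.17. Relative to that shift of all genes they were still lower.

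**Figure D1:**
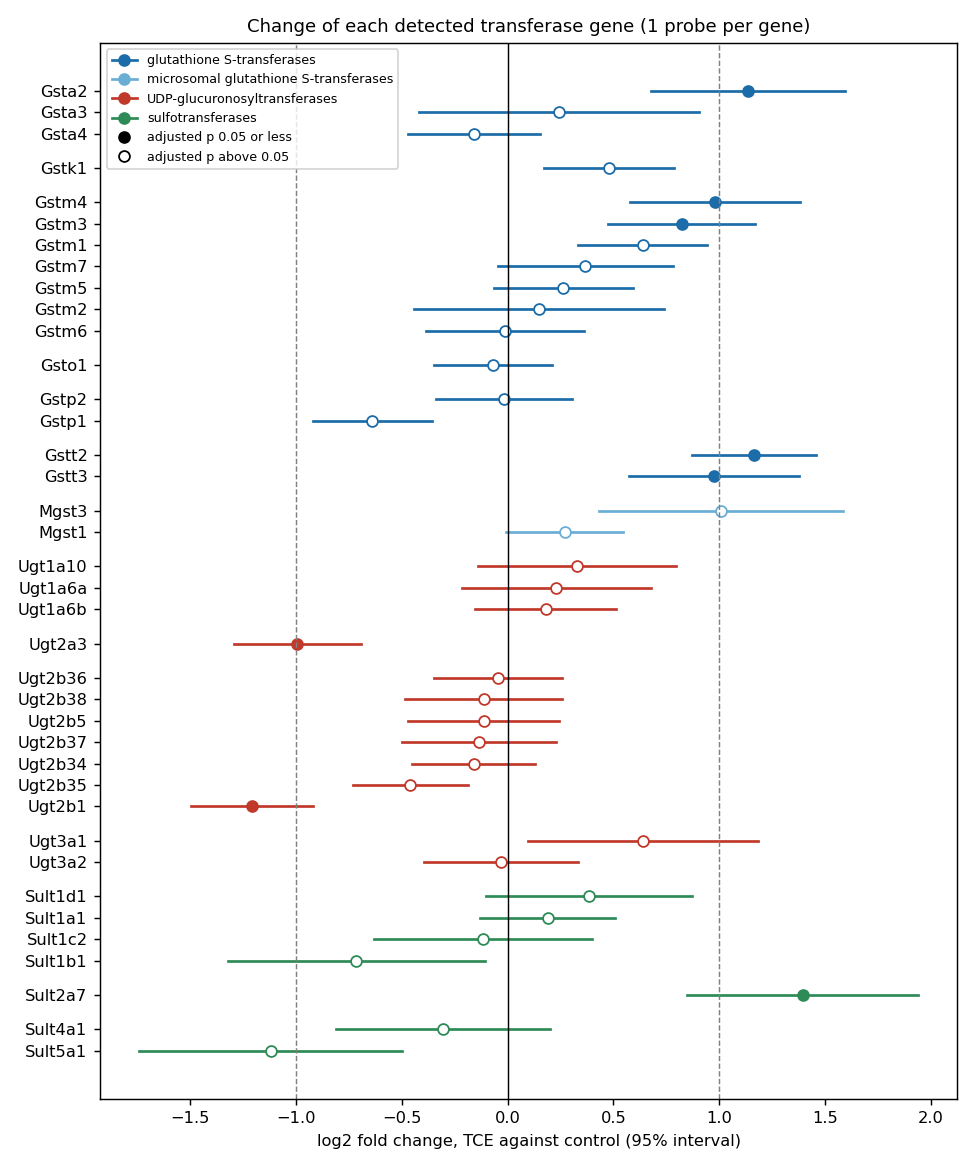
Log2 fold change of TCE against control (horizontal axis) for each of the 38 detected transferase genes, 1 probe per gene, with its 95% interval as a line and the family as the colour; filled points have an adjusted p of 0.05 or less and dashed lines mark a 2-fold change. The GST genes lie mostly to the right of 0, up to 1.16 in Gstt2, and the Ugt2 genes all lie to the left, down to -1.21 in Ugt2b1, although without normalization between arrays 5 of the 7 Ugt2b genes lay above 0.

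The threshold combined an adjusted p of at most 0.05 (limma, two-sided, Benjamini-Hochberg over all 22718 detected probes) with a fold change of 2 or more. Past it were 3 of the 38 member genes that were higher in the TCE group, or 7.89%, compared with 1.30% of all detected genes, and 1 that was lower, or 2.63% compared with 0.429%. The first were Gsta2, Gstt2 and Sult2a7, and the last was Ugt2b1. At an adjusted p of 0.05 or less with any fold change, 6 members were higher, or 15.8% compared with 1.80% of all genes, and 2 were lower, or 5.26% compared with 0.588%. The values of the 3 TCE mice were all above those of the 3 control mice in 12 members, or 31.6% compared with 17.1% of all genes, and all below in 5, or 13.2% compared with 10.8%. The last share is near that of all genes. An unadjusted p under 0.05 by limma, in either direction, was reached by 16 members, or 42.1% compared with 19.1%.

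With 1 mouse left out at a time, between 0 and 3 members were past the threshold upward and 1 downward. The gene that remained in every fit was Ugt2b1 (adjusted p 0.0291 to 0.04995 by limma). With 3 mice per group an exact permutation test of a single gene (two-sided) cannot give a p below 0.1. The number of arrays therefore limits how small such a p can be, and it also limits the precision of every value.

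The family medians were also taken in each mouse, as the median over genes of the difference from the control mean. For the GST genes it was 0.46, 0.27 and 0.33 in TCE mice 1, 2 and 3, and 0.00, -0.04 and 0.03 in control mice 1, 2 and 3, so that the groups did not overlap. The MGST values, which rest on 2 genes, were 0.84, 0.66 and 0.42 in TCE mice and -0.02, -0.15 and 0.17 in control mice. For the UGT genes the TCE mice had -0.13, 0.00 and -0.25 and the control mice 0.12, -0.05 and -0.06. TCE mouse 2 lay within the range of the controls there. The SULT values of the TCE mice, -0.05, 0.03 and -0.18, lay inside the range of the control mice, -0.21 to 0.11.

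**Figure D2:**
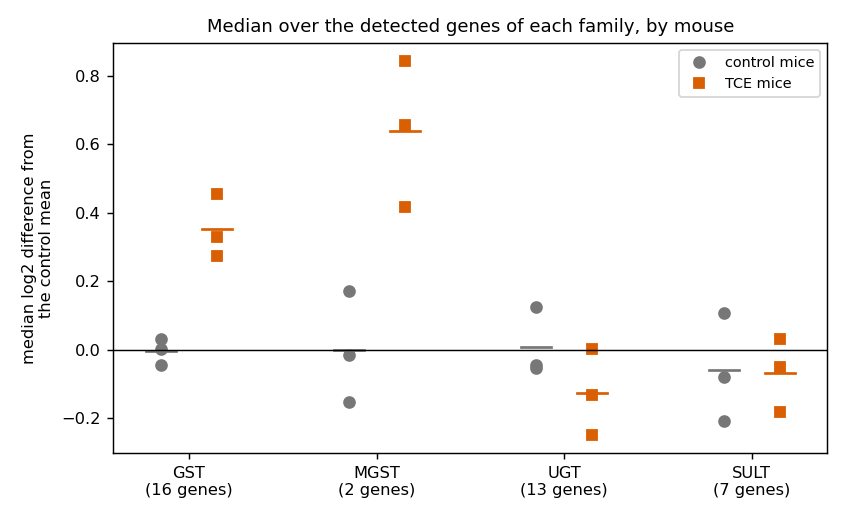
Median log2 difference from the control mean (vertical axis) over the detected genes of each family, in each control mouse (circles) and TCE mouse (squares), with a short line at the group mean. The TCE mice lie at 0.27 to 0.46 for GST genes, above every control, whereas the groups overlap for UGT and SULT genes.

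In the alpha class Gsta2 rose, while Gsta3 and Gsta4 did not pass the test. Alpha transferases conjugate products of lipid peroxidation and are abundant in hepatocytes. The Gsta2 signal (log2) was 11.03, 10.97 and 11.44 in control mice 1, 2 and 3 and 12.46, 12.39 and 12.00 in TCE mice 1, 2 and 3. The lowest TCE mouse lay above the highest control, and the fitted log2 change was 1.14 (SE 0.19, limma adjusted p = 0.0431). No fit with a mouse left out kept the call (adjusted p 0.0534 to 0.161 in 6 fits), although the change stayed between 1.05 and 1.28. Gsta3 had a log2 fold change of 0.24 (95% interval -0.42 to 0.91), and Gsta4 one of -0.16 (-0.47 to 0.15).

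The Gsta2 probe, on chromosome 9 of mm9 (chr9:78178856-78178915, minus strand), resembles probes of 2 neighbouring loci, Gm10639 and Gm3776, which lie between Gsta1 and Gsta2 in the gene order of RefSeq. These loci are no members and were looked up after the values of Gsta2 had been seen. A further probe, which has no gene symbol, matched the Gsta2 probe at 46 of 50 overlapping bases, and its signal is not given here. Aligned to the 60 bases of the Gsta2 probe, the Gm10639 probe matched at 58, differed at 1 and lacked 1, and the Gm3776 probe matched at 46 of the 50 bases that overlap. The matching 30 bases of each are shown because a probe with few differences can bind RNA of the other loci, with the bases that differ from Gsta2 in capitals:
Gsta2: tggcctctaattgtttgcaattataaaata
Gm10639: tggcctctaatGgtttgcaattataaaata
Gm3776: tggcctctaatGgtttgcaattataaaaAG

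Both of these loci were past the threshold as well, with fitted changes above that of Gsta2, a difference that was not tested. The log2 signal of the Gm3776 probe was 9.03, 9.13 and 9.69 in control mice and 12.75, 12.46 and 11.78 in TCE mice, a fitted log2 change of 3.05 (SE 0.30, limma adjusted p = 0.00854), and each fit with a mouse left out kept the call (adjusted p 0.0127 to 0.0483). The Gm10639 probe rose from 10.97, 11.01 and 11.52 to 13.52, 13.43 and 12.71, a fitted log2 change of 2.06 (adjusted p = 0.0228 by limma), which lost the call in 5 of the 6 fits with a mouse left out, all except that without TCE mouse 3. Its other probe, which does not resemble that of Gsta2, gave 0.32 (limma adjusted p = 0.623). Control mouse 3 was the highest control and TCE mouse 3 the lowest TCE mouse for the probes of Gsta2 and Gm3776 and the similar probe of Gm10639. The same order was seen for both probes of the microsomal Mgst3, so that it was not particular to the similar probes. How much of the Gsta2 signal came from the neighbouring loci was not tested.

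**Figure D3:**
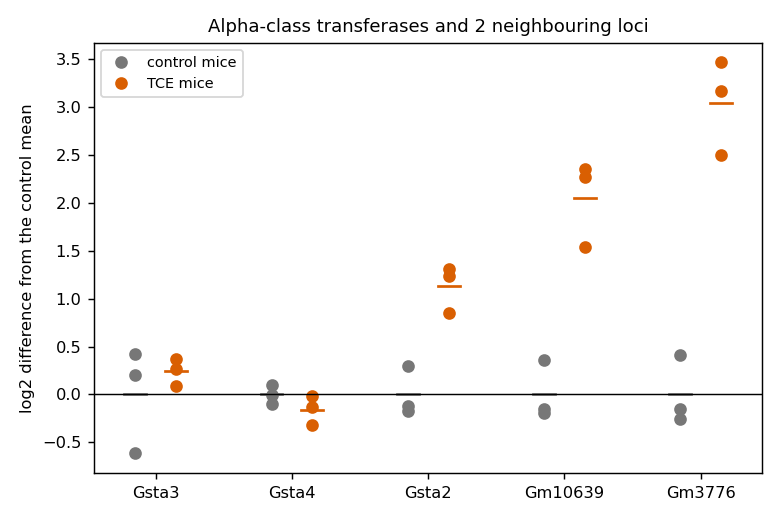
Log2 difference from the control mean (vertical axis) for the 3 alpha-class members and for the similar probes of Gm10639 and Gm3776, with each control and TCE mouse as a point and the group mean as a short line. The mean difference of the TCE mice is 1.14 in Gsta2, 2.06 in Gm10639 and 3.05 in Gm3776, while Gsta3 and Gsta4 overlap between groups.

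The mu class had a median log2 fold change of 0.37 over its 7 detected genes, of which 6 were higher. Mu transferases act on epoxides and other reactive intermediates, and their genes lie side by side on chromosome 3. Gstm3 was measured by 2 probes. On the dimmer one (chr3:107766615-107766674, minus strand) the log2 signal was 11.87, 12.01 and 11.91 in control mice and 13.20, 13.08 and 13.54 in TCE mice, without overlap. Its fitted log2 change was 1.34 (SE 0.15, limma adjusted p = 0.0145), and the call was lost without control mouse 1, 2 or 3 or TCE mouse 1 (highest adjusted p 0.0634). The brighter probe, which represents the gene in the counts, gave 0.82 (limma adjusted p = 0.0492, above 0.05 with any mouse left out), under the 2-fold limit. The first 30 of the 60 bases of the dimmer probe, which carried the call, are given here:
Gstm3: tcatgtacaataaagcctgaaacacacttg

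Gstm4 and Gstm1 also passed the test at changes under 2-fold. Gstm4 had log2 signals of 11.97, 11.92 and 12.02 in control mice and 13.11, 13.13 and 12.61 in TCE mice on its brighter probe, and its log2 fold change was 0.98 (limma adjusted p = 0.0459). Its other probe gave 0.80 (limma adjusted p = 0.0810). For Gstm1 the probe within the mu cluster went from 14.52, 14.21 and 14.46 to 15.44, 15.12 and 15.18, a fitted log2 change of 0.85 (adjusted p = 0.0459 by limma). The brighter Gstm1 probe, which the array annotation places on chromosome 5 and thus outside the cluster, gave 0.64 (limma adjusted p = 0.0683). Neither call was stable with fewer mice. That of Gstm4 remained in 1 of the 6 fits with a mouse left out, without TCE mouse 3, and that of the Gstm1 probe in 0. The changes in these fits stayed between 0.89 and 1.15 for Gstm4 and between 0.76 and 0.91 for the Gstm1 probe.

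Gstm2, Gstm5, Gstm6 and Gstm7 had fitted changes between -0.01 and 0.37 on their brightest probes, and all of their 95% intervals included 0. Within Gstm6 the probes disagreed in sign, from -0.14 to 0.11.

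The theta class had the highest median of the GST classes, 1.07 over its 2 detected genes. Some theta transferases act on small halogenated compounds such as dichloromethane, an activity that was not measured here for Gstt2 or Gstt3. Gstt2 (chr10:75295206-75295265, minus strand) had a log2 signal of 11.64, 11.42 and 11.47 in control mice and 12.66, 12.79 and 12.58 in TCE mice. All of the TCE mice lay above all controls, and the fitted log2 change was 1.16 (SE 0.12, limma adjusted p = 0.0111). The call was lost without control mouse 2, control mouse 3 or TCE mouse 1 (adjusted p 0.0629, 0.0540 and 0.0537). The first 30 bases of its probe were as follows:
Gstt2: cggaacagagatagaatggtcctggttctg
Gstt3, its neighbour on chromosome 10, went from 11.63, 11.35 and 11.64 to 12.62, 12.24 and 12.69. Its log2 fold change of 0.98 had an adjusted p of 0.0459 by limma, a call that remained in 1 of the 6 fits with a mouse left out, without TCE mouse 2. There its fold change was above 2.

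In the pi class both genes had negative changes, with a class median of -0.33 that was -0.23 without normalization, where 1 of the 2 was higher. Pi transferases are prominent in the liver of male mice. On its brighter probe Gstp1 had log2 signals of 16.95, 17.03 and 17.18 in control mice and 16.50, 16.41 and 16.34 in TCE mice. The groups did not overlap, but the log2 fold change of -0.64 had an adjusted p of 0.0581 by limma. Its dimmer probe gave -0.94 (limma adjusted p = 0.0268, above 0.05 with each mouse left out). The probes of its near copy Gstp2 gave -0.02 (95% interval -0.34 to 0.31) and -0.62 (limma adjusted p = 0.0583). The probe with -0.02 is the brighter one, which represents Gstp2 in the counts and the class median. It has no position in the array annotation, whereas the other Gstp2 probe and both Gstp1 probes are placed on chromosome 19. The dimmer Gstp2 probe, which gave the larger change, and the brighter Gstp1 probe share 30 of 35 overlapping bases, so that the 2 genes are not cleanly separated.

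In the remaining soluble classes no gene passed the test. Gstk1, the kappa transferase of mitochondria and peroxisomes, had log2 signals of 14.19, 14.09 and 14.11 in control mice and 14.47, 14.55 and 14.79 in TCE mice, a change of 0.48 (limma adjusted p = 0.131). Gsto1, the omega transferase that reduces dehydroascorbate, had -0.07 (95% interval -0.35 to 0.21). Among the microsomal enzymes, Mgst3 had 9.83, 9.46 and 9.99 in control mice and 11.11, 10.87 and 10.34 in TCE mice. Its 2 probes gave changes of 1.01 and 1.04, above 2-fold, with adjusted p values of 0.104 and 0.0864 by limma. Mgst1, an abundant membrane protein of hepatocytes, had 0.27 (95% interval -0.01 to 0.54).

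**Figure D4:**
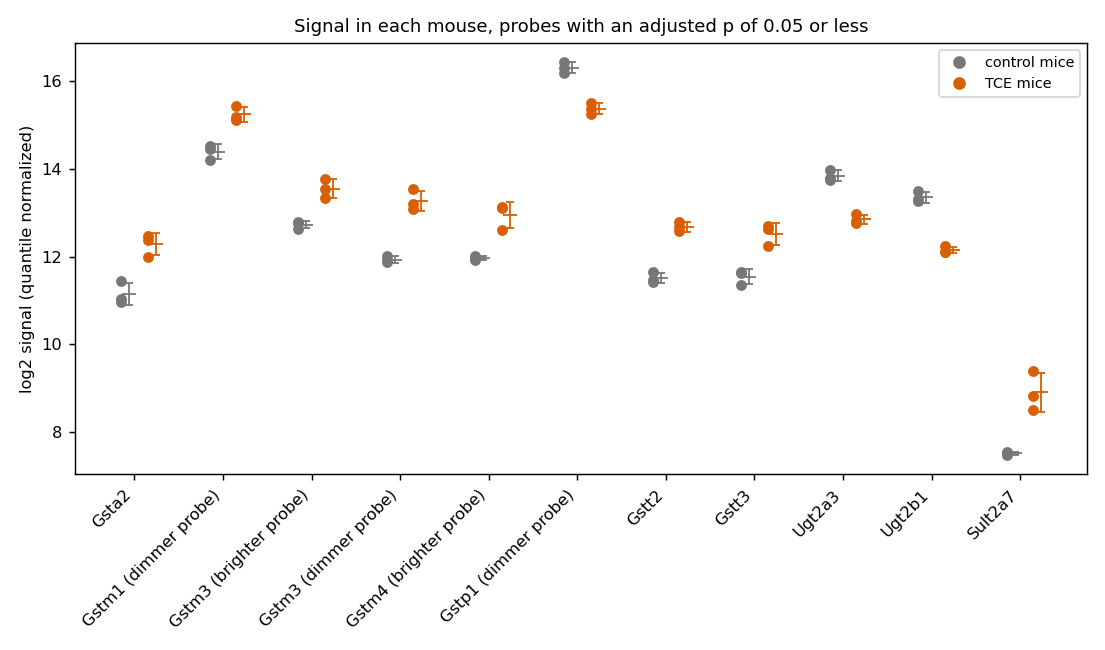
Log2 signal (vertical axis, quantile normalized) in each control and TCE mouse for the 11 transferase probes with an adjusted p of 0.05 or less, with the mean and SD of the 3 mice beside the points; levels of different probes are not comparable. In each probe the groups are separate, with the TCE mice above the controls in 8 probes and below in those of Gstp1, Ugt2a3 and Ugt2b1.

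Among the UGT genes, Ugt2b1 fell and no gene rose past the threshold. Ugt2 enzymes conjugate steroids, bile acids and drugs, and their genes form a cluster on chromosome 5. Ugt2b1 (chr5:87346310-87346369, minus strand) had a log2 signal of 13.30, 13.50 and 13.26 in control mice and 12.10, 12.11 and 12.23 in TCE mice. The TCE mice lay within 0.13 of each other and more than 1 unit below the lowest control. The fitted log2 change was -1.21 (SE 0.12, limma adjusted p = 0.00964). The first 30 bases of its probe, which shared no stretch with another probe by the limits used here, were as follows:
Ugt2b1: actatacccaacaacaatcactgaggttac
Ugt2a3, in the same cluster, went from 13.99, 13.75 and 13.79 to 12.97, 12.76 and 12.81. Its log2 fold change of -0.99 was just under the 2-fold limit (limma adjusted p = 0.0207), and the adjusted p was above 0.05 with each mouse left out (0.0575 to 0.0862).

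The other 6 Ugt2b genes were all slightly lower after quantile normalization, and none passed the test. Without normalization 5 of the 7 Ugt2b genes were higher, at a median of 0.08 where that of all genes was 0.27. The largest of these changes was -0.46 in Ugt2b35 (limma adjusted p = 0.112), in which the groups did not overlap. Its other probe gave -0.44. The remaining 5, Ugt2b34, Ugt2b36, Ugt2b37, Ugt2b38 and Ugt2b5, had changes from -0.16 to -0.04 with 95% intervals that included 0. For Ugt2b38 the change was -0.11 (95% interval -0.49 to 0.26). The Ugt2b37 and Ugt2b5 probes matched at 46 of 55 overlapping bases.

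The Ugt1a genes are transcribed from a single locus with alternative first exons. On their brightest probes all 3 that were detected were slightly higher and none passed the test. The changes were 0.33 in Ugt1a10 (95% interval -0.14 to 0.80), 0.23 in Ugt1a6a and 0.18 in Ugt1a6b. The Ugt1a6a probe had a low log2 signal, 5.96 to 6.55 over the 6 mice, beside 16.59 to 17.00 on the brightest Ugt1a6b probe. The probes of Ugt1a6b had opposite signs, 0.18 and -0.22, neither past the test. The brighter one (chr1:90115493-90115552) lies close to the Ugt1a6a probe (chr1:90116514-90116573), and the dimmer one apart, at chr1:90004249-90004308. Whether the brighter probe lies in an exon common to these genes was not tested. The Ugt1a6a and Ugt1a6b changes therefore cannot be taken as separate. The Ugt3a enzymes use sugars other than glucuronic acid. Ugt3a1 had 11.84, 11.76 and 11.13 in control mice and 12.38, 11.97 and 12.30 in TCE mice, a change of 0.64 that did not pass the test (limma adjusted p = 0.218), and Ugt3a2 had -0.03 (95% interval -0.39 to 0.33) on its brighter probe. Its dimmer probe gave -0.49 (95% interval -1.002 to 0.025, limma adjusted p = 0.300).

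Among the SULT genes Sult2a7 rose, from a low signal. Sult2 enzymes act on steroids and bile acids, and it was the 1 member of 7 in this subfamily that was detected. Its log2 signal (chr7:15050514-15050573, minus strand) was 7.47, 7.53 and 7.51 in control mice and 8.82, 8.49 and 9.38 in TCE mice, well above background on all arrays. The controls lay within 0.06 of each other and the TCE mice spread over 0.89. The fitted log2 change was 1.39 (SE 0.23, limma adjusted p = 0.0400), and the call was lost without control mouse 1, 2 or 3 or TCE mouse 1 (highest adjusted p 0.148). The first 30 bases of its probe were as follows:
Sult2a7: gcttttgataaagtgtaccaggagaaaatg

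The probes of Sult2a1, Sult2a2 and Sult2a4 resembled each other in pairs, at 47 of 53, 51 of 54 and 54 of 59 overlapping bases, but none of them was well above background on any array. None of them resembled the Sult2a7 probe by the same limits.

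The other detected SULT genes did not pass the test. Sult5a1 had the most negative change, with log2 signals of 9.98, 10.89 and 10.45 in control mice and 9.03, 9.40 and 9.53 in TCE mice. The groups did not overlap, and the change was -1.12 (SE 0.26, limma adjusted p = 0.1004). Sult1b1, which sulfonates thyroid hormones and small phenols, had 11.66, 11.93 and 12.07 in control mice and 10.86, 10.96 and 11.70 in TCE mice, a change of -0.71 (limma adjusted p = 0.218). TCE mouse 3 overlapped with the controls. Sult1a1, the main phenol sulfotransferase, had 0.19 (95% interval -0.13 to 0.51).

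The 14 members that were not detected were Gsto2, Gstt4, Mgst2, Sult1c1, Sult1e1, Sult2a1, Sult2a2, Sult2a3, Sult2a4, Sult2a6, Sult2b1, Sult3a1, Sult6b1 and Ugt2a1. Of these, 10 were SULT genes. Sult1e1, the estrogen sulfotransferase, was well above background on 2 TCE arrays and 0 control arrays, and Gsto2 on 1 TCE array. The other 12 were not above background on any array, so that no change can be given for them.

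The enzymes and carriers that supply the transferases were taken from lists by donor, whose medians were 0.14, 0.06 and -0.15, beside 0.02 for all genes, and these differences were not tested. Of 17 detected genes of glutathione synthesis, transport and breakdown, 10 were higher and 7 lower, with a median log2 fold change of 0.14, and 4 had an unadjusted p under 0.05 (23.5% compared with 19.1% of all genes). The 1 gene past the threshold was Nat8, which acetylates cysteine conjugates to mercapturic acids, the final products of the glutathione route. Its log2 signal was 12.81, 12.74 and 13.55 in control mice and 11.66, 11.48 and 11.18 in TCE mice. The groups were separate, and the fitted log2 change was -1.59 (SE 0.25, limma adjusted p = 0.0373). No fit with a mouse left out kept that call (adjusted p 0.0604 to 0.104). Chac1, which degrades glutathione, had 8.647, 9.202 and 10.76 in control mice and 11.44, 11.25 and 10.95 in TCE mice. Its change of 1.68 did not pass the test (limma adjusted p = 0.174), and neither did that of Oplah, which returns oxoproline to glutamate, at 0.89 (limma adjusted p = 0.0813).

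In the lists for the other donors 0 genes were past the threshold by limma. The 14 detected genes of glucuronic acid supply had a median of 0.06, with 8 higher and 6 lower, and 4 had an unadjusted p under 0.05 (28.6% compared with 19.1% of all genes). The largest changes were 0.76 in Miox, which oxidizes inositol to glucuronate, and -0.48 in Slc35d1, a carrier of UDP-glucuronic acid. The 12 genes of sulfate donor supply had a median of -0.15, with 5 higher and 7 lower, and 2 had an unadjusted p under 0.05 (16.7%). Slc13a4, a sulfate transporter, had -0.63 and Csad, an enzyme of taurine synthesis, -0.46. The methods' t-test, which is the study's own per-gene test without adjustment and with a fold change of 2 or more, also called 0 genes in either list, compared with 3.10% of all genes and 15.8% of the members.

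The other conjugating enzymes and the receptors that regulate conjugation likewise had 0 genes past the threshold, and 0 by the methods' t-test. The 18 detected conjugating enzymes had a median of 0.04, with 10 higher and 8 lower, and 3 had an unadjusted p under 0.05 (16.7% compared with 19.1% of all genes). As3mt, an arsenic methyltransferase, had 0.60 (limma adjusted p = 0.0764), with TCE mice from 10.56 to 10.69 above controls from 9.84 to 10.12, and Nqo1, a quinone reductase, had 0.58 (limma adjusted p = 0.352). The 12 receptors and partners, among them the receptors CAR (Nr1i3) and PXR (Nr1i2), had a median of 0.11, with 9 higher and 3 lower, and 3 had an unadjusted p under 0.05 (25.0%). Arnt had 0.54 and its partner Ahr -0.53 (limma adjusted p = 0.263 and 0.207).

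Markers of other liver cells were taken from lists as well. By limma 0 of the 30 detected markers of macrophages, bile duct, endothelium, stellate cells, lymphocytes, red cells and pancreas were past the threshold, and 3 had an unadjusted p under 0.05 (10% compared with 19.1% of all genes). The methods' t-test without adjustment called 1 of them, in the stellate list. The 6 endothelial markers were all lower (median -0.20), as were 6 of 7 macrophage markers (median -0.12). The marker Alas2 of red cell precursors had a change of -0.91 (limma adjusted p = 0.0215) and Lrat of stellate cells one of -1.35 (limma adjusted p = 0.0675). The median level of the 3 red cell markers was 14.52 to 15.13 in control mice and 13.06 to 15.11 in TCE mice, and that of the 5 stellate markers 7.85 to 8.57 and 7.09 to 7.83. These medians fell on different genes in different mice, so that they do not measure the change of a marker. The stellate median was Pdgfrb in every TCE mouse and other genes in the controls. Pdgfrb itself overlapped, at 7.44 to 7.68 in control mice and 7.09 to 7.83 in TCE mice. The part of these cells in the results above was not tested.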

How the data were processed

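The arrays had a single colour and each of the 6 mice had its own. The authors extracted the scans with Feature Extraction 10.7.1.1, and each deposited scanner file gives a background-corrected intensity for 62976 spots. The authors also deposited a table of quantile-normalized log2 means per group, gene symbols and mm9 probe positions, whose 6 columns of flags per array were not used. Here log2 intensities of 55681 probes that are not controls were taken with no pseudocount, outlier-flagged spots (123 to 189 per array) were set to missing, spots of a probe were averaged and arrays were quantile normalized. The group means of all 78 member probes lay within 0.01 of the authors' log2 means.

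Groups were compared in R 4.3.3 by two-sided moderated tests of limma 3.58.1 (functions lmFit, eBayes), with no covariate, over 22718 detected probes, with Benjamini-Hochberg adjustment. As an alternative, the test of the study's methods (t-test, P of 0.05 with no adjustment, fold change of 2) was run and is called the methods' t-test. The arrays are separate animals. Family medians and lists were described by counts and medians, with no test over genes. The procedure was tested on simulated data. Other alternatives were another normalization and background correction (normexp, offset 50), other filters on dim and outlier spots, a replicate or slide block, weights per array, a trended and robust variance, medians over the probes of a gene, the authors' group means and each mouse left out.

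Named are members with a probe past the threshold, in each class the brightest and the most changed detected member, in each list the genes past the threshold and the 2 with the largest changes, and others beside them that were chosen after their values were seen, among them Gm3776, Gm10639, Gstt3, Alas2 and Lrat. The members and lists were chosen with earlier results of these data known, and the count by adjusted p alone was added after the data were examined. Probes were compared where they share a run of 15 bases (members with each other in all pairs), overlap by at least 30 bases and match at 80% or more. Promoter windows and gene order came from RefSeq (GRCm38.p6), matched by symbol, and Biopython was used for alignment. Some genes that match the patterns are not reported here.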

Additional observations from a re-analysis of the deposited data

How the results depend on the processing

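With 1 mouse left out, 0 to 3 members were past the threshold upward and 1 to 1 downward, and the median log2 fold changes were 0.29 to 0.39 (GST), 0.54 to 0.75 (MGST), -0.21 to -0.016 (UGT) and -0.28 to 0.081 (SULT). Instead of 3 members upward, of 173 genes in all, there were 5 with 75th percentile normalization (of 185) or with array weights (of 219), 1 with the slide as a block, which drops control mouse 1 (of 106), or with no filter on dim probes (of 55), 0 with the methods' t-test after Benjamini-Hochberg adjustment (of 17), and 6 of 239 by adjusted p alone, a rule added after the data were examined. Downward, in place of 1 of 57, there were 0 of 22 without normalization, 2 of 126 by the methods' t-test without adjustment and 0 of 3 after it, and 2 of 78 by adjusted p alone. The median moved to 0.60 (GST), 0.13 (UGT) and 0.17 (SULT) without normalization, and with no filter on dim probes to 0.27 (MGST) and 0.037 (SULT). The UGT median thus changed sign without normalization, and the SULT median there, with no filter on dim probes and without TCE mouse 3 (0.081). The causes of these differences were not tested.

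The replicate numbers did not pair the mice: deviations of mice with the same number correlated at 0.09, 0.01 and -0.09. With the replicate number as a block, limma called 0 members upward and 0 downward, of 40 and 5 genes in all. At an unadjusted p under 0.05 were 16 of the 38 members (42.1%) and 16.5% of all genes. The methods' t-test without adjustment called 4 members upward and 2 downward, of 285 and 126 genes. Among the counts and family medians under alternatives, 88 values were labelled the same. For medians this meant a move of less than the spread between mice, and for counts a small difference, such as 4 for 3, was allowed. Another 8 medians and 16 counts moved further. For single probes of named members, 469 values were labelled the same, 35 weaker and 9 stronger. The number of arrays and, for 14 members, the signal over background limit what can be seen.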

Other observations

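Promoters of the members were searched for the core of the antioxidant response element (ARE), TGACNNNGC, which binds NRF2, and for a pair of half-sites AGGTCA spaced by 1 base, the element type of PPAR receptors, on both strands of windows from 250 bases before to 50 bases after each start. RefSeq held 54 such windows for 44 of the 52 members. The ARE core was found in 4 of the 54 windows, or 7.41%, compared with 12.4% of all 32851 windows. These were the windows of Gsta3, Gstm5, Gstm7 and Mgst1, at 121, 42, 129 and 56 bases before the start. Of the genes with a probe at an adjusted p of 0.05 or less by limma, 8 had windows and 0 of these held the core, while Gstt2 and Sult2a7 had no window in the table. The half-site pair was in 0 member windows and in 13 of all windows (0.0396%). With so rare an exact match, 0 in 54 windows says nothing about the members. The search covers only these windows and no other element was sought.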
